A study of Mus musculus with 16 samples.

Results

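Mouse chromosomes 12 and 17 were followed from end to end in histone ChIP-seq peak lists of mesenchymal stem cell (MSC) lines without Dicer (KO) and with intact Dicer (WT). The members were all peaks on these chromosomes in 24 peak lists, 22614 of 289380 peaks, of which 9605 lay on chromosome 12 and 13009 on chromosome 17. Merging the overlapping peaks of each mark gave 6892 of 89014 regions. By mark, these were 859 and 1153 regions of H3K4me3 on chromosomes 12 and 17, 1559 and 1811 of H3K36me3, and 493 and 1017 of H3K27me3.

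The cells were immortalized monoclonal murine MSC lines on the C57BL/6 strain, genotype Dicer -/- for KO and Dicer f/f for WT, grown in the same medium. Each genotype had 2 libraries per mark, numbered replicate 1 and 2, and for every library there was a peak list with whole-cell extract as its control and another of difference peaks. A monoclonal line descends from a single cell, so anything that a clone acquired before or after Dicer was lost is shared by all libraries made from it. The labels do not name the Cre that deleted Dicer, do not say how many clones were used and do not say whether replicates were separate cultures, so the spread between replicates may be technical. MSC identity and the Dicer deletion itself were not checked, because no gene annotation of the build of the lists, mm9, was used here.

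H3K4me3 marks the promoters of active and poised genes. H3K36me3 is laid down over the bodies of genes as they are transcribed. H3K27me3 is the mark of Polycomb repressive complex 2, covers silenced developmental genes and is usually absent where H3K36me3 is present. Dicer cuts microRNA precursors into mature microRNAs. Chromosome 12 carries Dicer1 itself, the endoderm pioneer factor gene Foxa1 and the imprinted pair Dlk1 and Meg3. Chromosome 17 carries Runx2, the master regulator of osteoblasts, and Igf2r, an imprinted receptor gene. The number of DNA copies bears on every mark over the copied stretch, whereas regulation of a gene acts on its promoter and body, so the marks were read side by side along each chromosome. DNA copies themselves were not measured, because the extract signal was not used here.

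The chromosomes were chosen from KO against WT calls in these same data, so every KO to WT value on them is a description without a test. The values that chose them were the H3K36me3 regions that held a peak of the difference list in both replicates, 39 KO-higher and 2 WT-higher on chromosome 12 and 31 KO-higher and 2 WT-higher on chromosome 17. KO-higher regions were 95.1% and 93.9% of these. The next chromosome in this order, 16, had 19 and 10, or 65.5%. Over all 39794 H3K36me3 regions, 0.668% were KO-higher and 1.24% were WT-higher in both replicates. A difference list was taken to set a library against the opposite genotype with matching mark and replicate number, which the sources used here do not state.

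The libraries were unequal in yield. H3K4me3 lists held 12726 to 23818 peaks and H3K36me3 lists 33388 to 38637. H3K27me3 lists held 703 and 17491 peaks in KO replicates 1 and 2, and 2558 and 14932 in WT replicates 1 and 2. Peak number and covered length were therefore given as a share of the library's own total over chromosomes 1 to 19 and X, and the lean is the log2 of the KO share over the WT share, averaged over replicates. Its range runs over the 4 pairs of a KO and a WT library. Sequencing depth is unknown, and depth and true marking cannot be told apart in a list called by threshold. Peaks of a whole culture do not show whether all cells or some of them carry a mark.

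Whole-chromosome shares of covered length leaned to KO on chromosome 12 in H3K4me3 and H3K36me3 and on chromosome 17 in H3K36me3. Otherwise the genotypes overlapped on these chromosomes. Such leans were not particular to them. H3K36me3 shares were also KO above WT on chromosomes 1, 2, 7, 11, 16 and 18. H3K4me3 shares were so on chromosomes 1, 2, 6, 13, 16 and 18. Chromosome 12 held 3.49% and 3.32% of H3K4me3 covered length in KO replicates 1 and 2, against 3.17% and 3.07% in WT replicates 1 and 2, a lean of 0.13 (0.063 to 0.19). It held 3.29% and 2.61% of H3K36me3 length in KO, against 2.13% and 2.38% in WT, a lean of 0.38 (0.14 to 0.63). Both leans were the highest of 20 chromosomes, and the H3K36me3 lean was 0.22 without KO replicate 1. For H3K27me3 the shares of chromosome 12 were 1.22% and 1.55% in KO and 1.01% and 1.64% in WT, so the genotypes overlapped.

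Chromosome 17 held 5.37% and 4.73% of H3K36me3 length in KO, against 4.10% and 4.52% in WT. This lean of 0.23 (0.066 to 0.39) ranked 2 of 20 and was 0.14 without KO replicate 1. Chromosomes 6 and 2 came next with 0.225 and 0.201, beside 0.228 here. The H3K4me3 shares of chromosome 17, 5.05% and 4.65% in KO against 4.84% and 4.66% in WT, overlapped. So did its H3K27me3 shares, 4.23% and 5.47% in KO against 4.35% and 4.39% in WT. By peak number, H3K36me3 on chromosome 12 had a lean of 0.17 (0.044 to 0.29), which was 0.064 without KO replicate 1. H3K4me3 on chromosome 12 overlapped between genotypes by number, with a lean of 0.083 (-0.030 to 0.20) that ranked 5 of 20. H3K36me3 on chromosome 17 overlapped by number as well, with 4.41% and 4.74% of peaks in KO against 4.33% and 4.61% in WT and a lean of 0.032 whose pairs spanned 0.

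**Figure D1:**
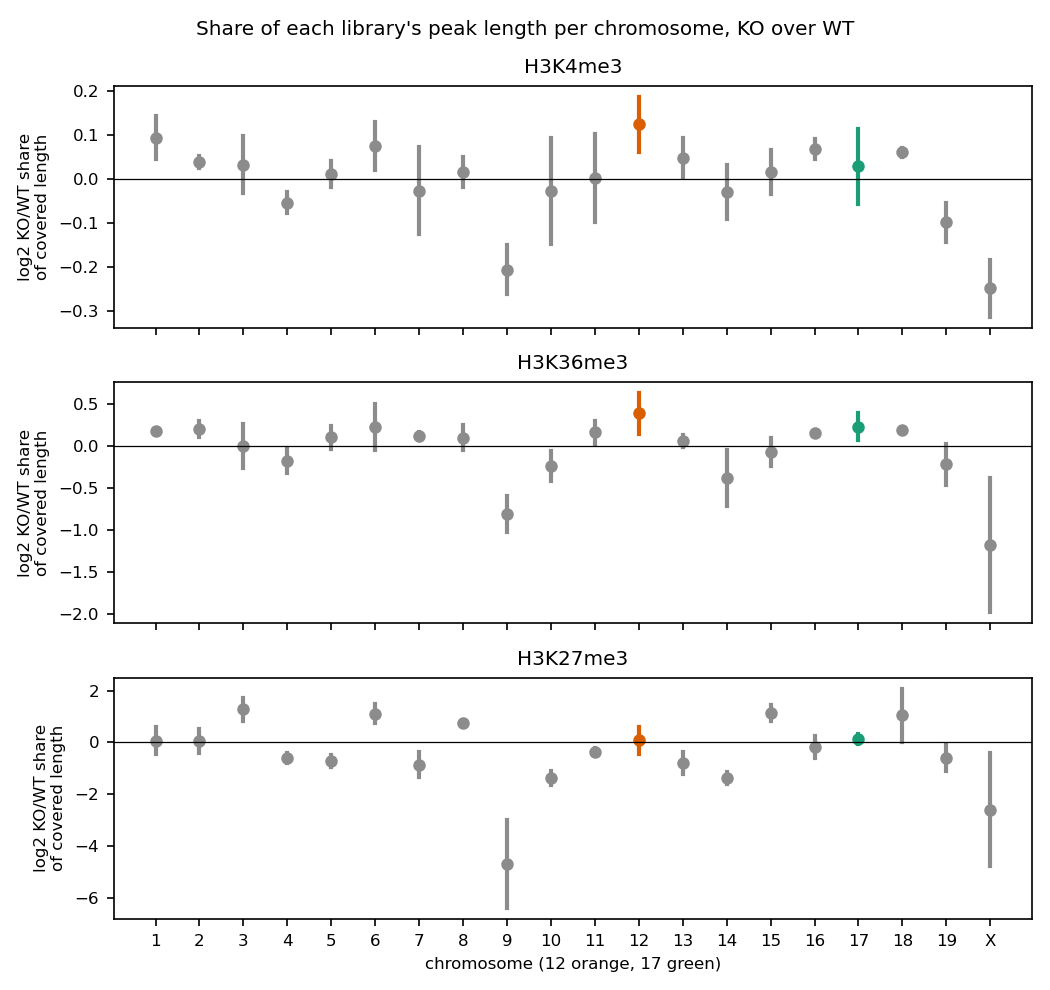
Lean of each chromosome, the log2 of the KO over the WT share of a library's covered length, for the 3 marks; points are the mean of the replicates and bars span the 4 pairs of a KO and a WT library. Chromosome 12 stands highest for H3K4me3 (0.13) and H3K36me3 (0.38), and its H3K27me3 bar spans 0.

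The chromosomes were then cut into bins of 5 Mb, and a bin counted as KO above WT where both KO shares exceeded both WT shares. Of the 25 H3K4me3 bins with enough signal on chromosome 12, 10 were KO above WT and 2 WT above KO, where all chromosomes had 25.2% and 21.2% of bins. For H3K36me3 these were 11 and 1 of 23 bins, beside 30.3% and 24.9% in all. For H3K27me3 they were 4 and 8 of 14, beside 23.6% and 30.3%. By peak number, 7, 12 and 4 bins of chromosome 12 were KO above WT for H3K4me3, H3K36me3 and H3K27me3, beside 24.7%, 17.7% and 23.9% of all bins.

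Chromosome 17 had 6 H3K4me3 bins KO above WT and none the other way among 19. For H3K36me3 it had 12 and 2 of 19, and for H3K27me3 2 and 2 of 17. By peak number its H3K36me3 count was 3 and 2 of 19 bins, or 15.8% KO above WT, near the 17.7% of all bins, so the lean was seen in length and not in number. By number, H3K4me3 had 6 and 2 of 19 and H3K27me3 2 and 2 of 18. Bins did not lean alike along either chromosome. H3K36me3 leans ran between -0.26 and 1.58 on chromosome 12, with quartiles of 0.057 and 0.70. On chromosome 17 they ran between -0.78 and 0.71, with quartiles of 0.097 and 0.34.

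**Figure D2:**
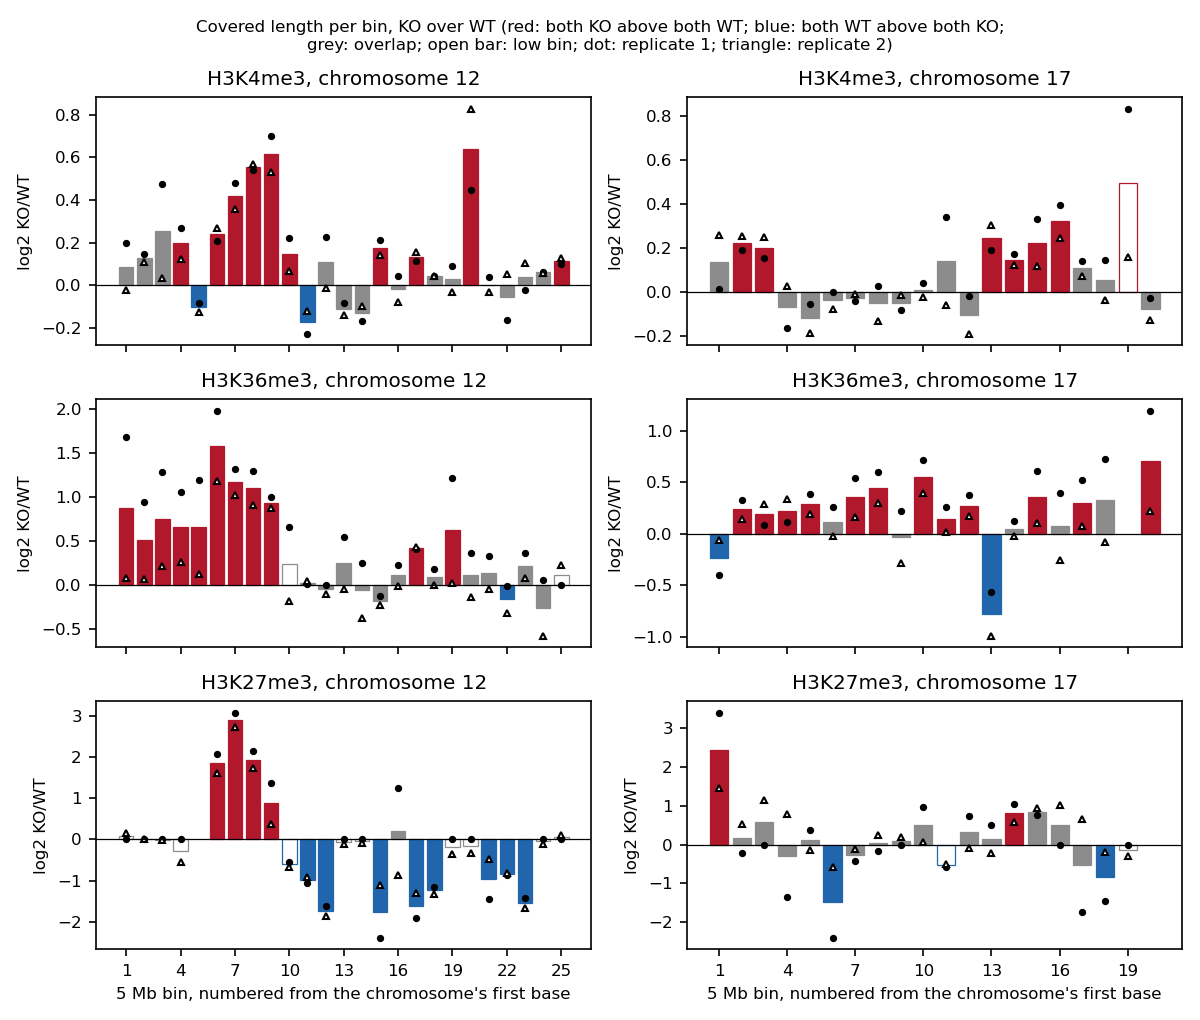
Lean of covered length in each 5 Mb bin of chromosomes 12 and 17, by mark; bars are the mean of the replicates and symbols each replicate, red where both KO libraries exceed both WT libraries and blue where both WT libraries exceed both KO libraries. The red bars of all 3 marks coincide in bins 6 to 9 of chromosome 12 and in no bin of chromosome 17.

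One stretch carried all marks at once. In the 4 bins between 25 and 45 Mb of chromosome 12, H3K4me3, H3K36me3 and H3K27me3 were each KO above WT in covered length in each bin. By peak number this held in all of these bins for H3K36me3 and H3K27me3, but not for H3K4me3 at 25 to 30 Mb, with 15 and 32 peaks in KO, against 15 and 19 in WT. Of the 402 bins that had enough signal in every mark, 18 (4.48%) were KO above WT in covered length in all 3 marks. Chromosome 12 had 4 of them among 14 bins, chromosome 17 had 0 of 17, and the other 18 chromosomes had 14 of 371. No other run of such bins was longer than 2. At a score of at least 160, only 8.33% of H3K27me3 bins of chromosome 12 were KO above WT in covered length. Not all bins of the stretch then kept all 3 marks. The stretch was picked after the bins had been seen, so its values are a description of these libraries.

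H3K4me3 covered 157.3 and 252.0 kb of the stretch in KO replicates 1 and 2, against 85.9 and 155.2 kb in WT replicates 1 and 2. Both KO shares were above both WT shares, with a lean of 0.47 (0.44 to 0.51). The lists held 75 and 120 H3K4me3 peaks there in KO, against 46 and 65 in WT. By bin the lean was 0.24 at 25 to 30 Mb, 0.42 at 30 to 35 Mb, 0.55 at 35 to 40 Mb and 0.62 at 40 to 45 Mb. Outside the stretch the H3K4me3 lean of chromosome 12 was 0.075 (0.0030 to 0.15). It ran between 0.033 without KO replicate 1 and 0.12 without KO replicate 2.

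H3K36me3, the mark of transcribed gene bodies, covered 546.1 and 499.1 kb of the stretch in KO, against 237.0 and 378.7 kb in WT. The genotypes did not overlap, and the lean was 1.30 (1.05 to 1.55). The lists held 152 and 157 peaks there in KO, against 131 and 118 in WT, a lean in number of 0.46 that was smaller than the lean in length. By bin the lean was 1.58, 1.17, 1.10 and 0.93 in order along the chromosome. These are 4 of the 9 highest H3K36me3 leans among 502 bins of the genome. In the same order, these bins ranked 65, 16, 7 and 5 of 504 for H3K4me3 and 21, 2, 18 and 79 of 403 for H3K27me3. Outside the stretch the H3K36me3 lean was 0.24 (-0.0020 to 0.48), and ran between 0.087 without KO replicate 1 and 0.39 without KO replicate 2.

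H3K27me3, the Polycomb mark, covered 8.31 and 410.6 kb of the stretch in KO, against 1.37 and 47.8 kb in WT. Over the whole stretch it was the mark with the largest lean, 4.26 (3.17 to 5.35). That value has no added length, and replicate 1 lists were sparse in both genotypes. By bin, with 5 kb added as for the other marks, the lean was 1.84, 2.89, 1.93 and 0.88 in order along the chromosome. The last of these was below the 0.93 of H3K36me3 in the same bin. Of the 9 H3K27me3 peaks that KO replicate 1 had on chromosome 12, 8 lay in the stretch. Of the 304 peaks of KO replicate 2, 208 did. In WT the stretch held 2 of 38 peaks in replicate 1 and 23 of 274 in replicate 2.

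Outside the stretch H3K27me3 ran the other way. It covered 0.622 and 122.5 kb in KO, against 45.9 and 576.2 kb in WT, with 1 and 96 peaks in KO, against 36 and 251 in WT. The lean was -2.81 (-4.16 to -1.46). The overlap of the genotypes in the H3K27me3 share of the whole chromosome thus joins a stretch above WT with a remainder below it. The 1 KO peak of replicate 1 outside the stretch makes the value of that library imprecise, and without KO replicate 1 the lean was -1.78.

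**Figure D3:**
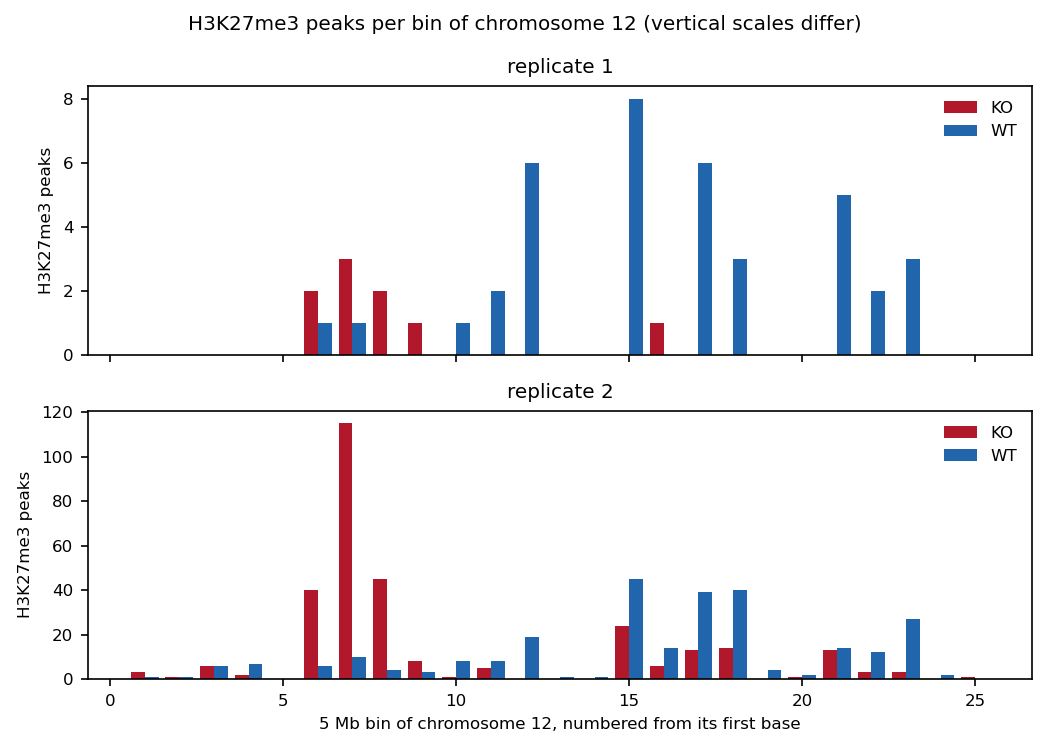
Number of H3K27me3 peaks per 5 Mb bin of chromosome 12 in KO (red) and WT (blue), replicate 1 above and replicate 2 below, on different vertical scales. KO peaks exceed WT peaks in bins 6 to 9, most of all in bin 7 with 115 against 10 in replicate 2, and WT peaks exceed KO peaks in most bins beyond.

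In bins of 1 Mb, H3K27me3 of KO replicate 2 rose at 25 to 26 Mb, next to bins with few peaks of any mark. No library listed an H3K27me3 peak between 20 and 25 Mb. From 22 to 25 Mb no library listed H3K36me3 either, and H3K4me3 covered at most 2.57 kb per library and bin. These bins therefore do not place an edge of the KO lean. KO replicate 2 listed 11 H3K27me3 peaks at 25 to 26 Mb, where WT replicate 2 listed 3. It listed 35 peaks over 57.0 kb at 35 to 36 Mb, its highest peak number in any 1 Mb bin of the chromosome, where WT replicate 2 listed 2. KO replicate 2 covered more length, 68.0 kb, at 31 to 32 Mb. At 37 to 40 Mb it listed 1 peak and WT replicate 2 none, and at 40 to 41 Mb it listed 8 against 1. At 45 to 46 Mb the order was turned, with 0 peaks in KO replicate 2 and 6 in WT replicate 2.

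The H3K27me3 difference list of KO replicate 2, the only one whose outermost peaks were looked up, spanned the same part. KO replicate 2 had 232 H3K27me3 difference peaks on chromosome 12, and 226 of them lay in the stretch. The first was chr12:25257432-25258656 and the last chr12:41009038-41009920. Only 6 lay elsewhere on the chromosome. Beyond this last H3K27me3 difference peak, at 41 to 42 Mb, H3K36me3 covered 8.68 and 5.45 kb in KO, against 0 and 0 kb in WT. H3K4me3 covered 8.93 and 13.8 kb there in KO, against 3.86 and 5.75 kb in WT. From 42 to 45 Mb no library listed H3K36me3, and H3K4me3 covered at most 2.39 kb per library and bin, so the far edge is not placed either.

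Counted by region, the share of H3K4me3 regions of the stretch that were KO-higher was 49.2% (95% Wilson interval 40.6% to 57.8%) in replicate 1 and 54.8% (46.1% to 63.2%) in replicate 2. In all H3K4me3 regions it was 20.7% and 23.8%. On chromosome 12 outside the stretch it was 26.1% and 23.5%, and on chromosome 17 26.5% and 22.0%. WT-higher regions were 1 of 126 in each replicate, beside 7.19% and 5.07% of all. Both replicates called 43 regions of the stretch KO-higher and 0 WT-higher, where all regions had 10.8% and 1.12%, and the rest of chromosome 12 had 84 and 15 of 733.

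For H3K36me3 the KO-higher share was 45.4% (38.4% to 52.6%) and 23.2% (17.7% to 29.8%) in replicates 1 and 2, beside 4.23% and 2.31% of all H3K36me3 regions. Outside the stretch it was 9.75% and 2.40%, and on chromosome 17 it was 8.39% and 2.54%. WT-higher H3K36me3 regions of chromosome 17 were 1.44% in replicate 1 and 5.74% in replicate 2, so in replicate 2 its KO-higher regions numbered 46 and its WT-higher regions 104. WT-higher regions were 0 and 1 of 185, beside 5.76% and 8.42% of all. Both replicates called 28 of 185 regions of the stretch KO-higher and 0 WT-higher. The stretch thus held 28 of the 39 KO-higher H3K36me3 regions by which chromosome 12 was chosen. Outside it, 11 of 1374 regions were KO-higher and 2 were WT-higher in both.

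For H3K27me3 the 2 replicates gave unlike counts, as their lists did. In replicate 2, 66.2% (59.7% to 72.2%) of the 216 regions were KO-higher, beside 13.6% of all H3K27me3 regions. KO replicate 2 itself listed 206 of these 216 regions and WT replicate 2 only 20, so this share is partly built in. Over all 24016 H3K27me3 regions these libraries listed 15704 and 14044. In replicate 1, whose KO difference list held few peaks in all, 1.85% (0.722% to 4.66%) were KO-higher, beside 0.404% of all. Outside the stretch, 7.22% and 41.5% of 277 regions were WT-higher in replicates 1 and 2, beside 4.03% and 21% of all. WT replicate 2 listed 245 of these 277 regions and KO replicate 2 listed 79, so the 41.5% is partly built in as well. In both replicates 1 region of the stretch was KO-higher and 1 WT-higher, and outside it 0 were KO-higher and 20 WT-higher, where all regions had 0.171% and 3.76%. The intervals given for the stretch in each mark cover counting error only, and regions near each other are not independent. Nor do they allow for the choice of chromosome 12 by H3K36me3 calls and of the stretch after its bins were seen.

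**Figure D4:**
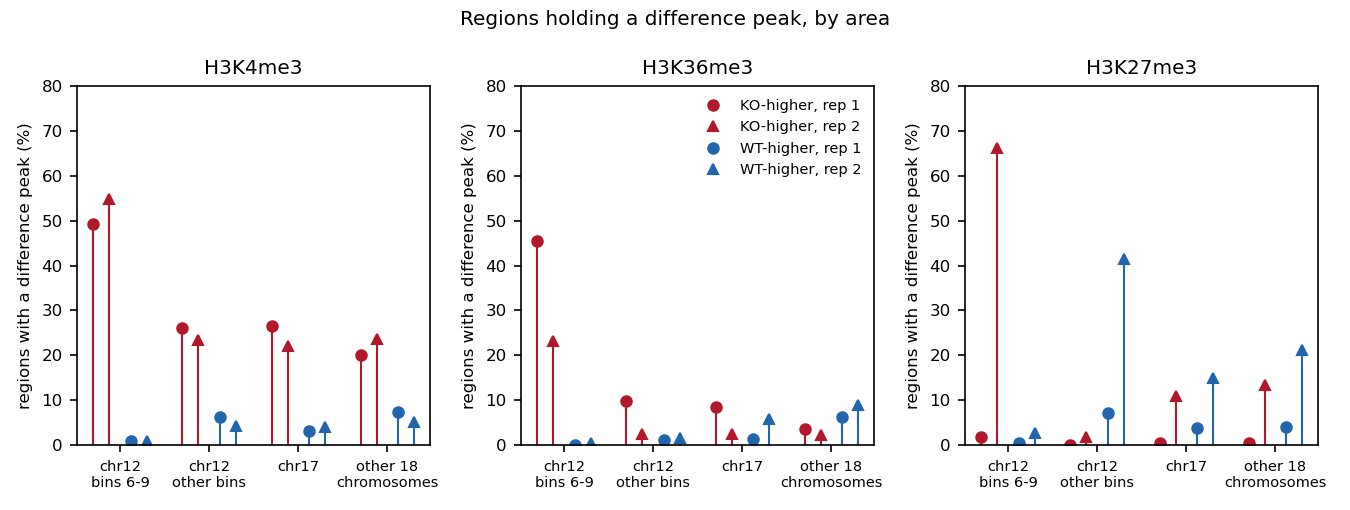
Share of regions that hold a difference peak, KO-higher and WT-higher by replicate, in chromosome 12 at 25 to 45 Mb, the rest of chromosome 12, chromosome 17 and the other 18 chromosomes, for each mark. The KO-higher share in the stretch exceeds that of the other areas in all 3 marks, 54.8%, 23.2% and 66.2% in replicate 2. KO replicate 2 itself listed 206 of the 216 H3K27me3 regions of the stretch.

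The KO lean of the stretch held both regions listed in KO alone and shared ones with more covered length in KO. Regions listed in both KO libraries and in no WT library made up 14.3% of its H3K4me3 regions and 16.8% of its H3K36me3 regions, beside 6.25% and 0.872% of all regions of these marks. They were 8.59% and 2.04% outside the stretch on chromosome 12, and 7.46% and 1.16% on chromosome 17. Of the 38 H3K4me3 regions of the stretch that all 4 libraries listed, 37 had more covered length in KO in replicate 1 and 35 in replicate 2. Over the genome 8175 and 6672 of 11100 had. The median log2 ratio of covered length per region in the stretch exceeded that of all shared regions by 0.21 and 0.15.

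Among the 39 shared H3K36me3 regions of the stretch, 35 and 29 had more covered length in KO, with medians 1.18 and 0.46 above that of all shared regions. Over the genome only 4117 and 850 of 11253 shared H3K36me3 regions had more covered length in KO. Less the median of all, the medians outside the stretch on chromosome 12 were 0.14 and -0.077, and those on chromosome 17 were 0.19 and 0.040. No H3K27me3 region of chromosome 12 was listed in all 4 libraries, so nothing can be said of covered length at shared regions there.

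H3K27me3 and H3K36me3 peaks of the stretch lay at separate sites, as nearly all did over the genome. None of the 208 H3K27me3 peaks of KO replicate 2 met an H3K36me3 peak of that replicate, which allows a share of up to 1.44%, and over the genome 8 of its 17491 peaks (0.0457%) did. None of the 23 of WT replicate 2 did, which allows up to 13.0%. H3K4me3 was met by 10 of the 208 (4.81%) in KO replicate 2, against 18 of its 96 peaks (18.8%) elsewhere on the chromosome and 7.76% of all its peaks. The median length of its H3K27me3 peaks was 1564 bp in the stretch, against 1044.5 bp elsewhere on chromosome 12, 1650.5 bp on chromosome 17 and 1424 bp over all peaks of that library.

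The single region of the stretch with H3K27me3 called KO-higher in both replicates was chr12:31596552-31601264. H3K27me3 covered 1818 and 4713 bp of it in KO, against 0 and 0 bp in WT. H3K4me3 covered 1043 and 1189 bp in KO, against 1015 and 1288 bp in WT, so the promoter mark overlapped between genotypes where the Polycomb mark did not. Of the regions with the strongest calls, 3 more lay in the stretch. H3K36me3 at chr12:31982063-31987343 covered 5281 and 5006 bp in KO, against 0 and 0 bp in WT. At chr12:25697769-25711560 it covered 11306 and 12553 bp in KO, against 7604 and 7647 bp in WT. H3K4me3 at chr12:33860059-33862040 covered 1811 and 1982 bp in KO, against 0 and 1138 bp in WT.

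The first 25 Mb of chromosome 12 leaned to KO in H3K36me3, mostly through replicate 1. H3K36me3 covered 730.7 and 522.3 kb there in KO, against 359.2 and 746.6 kb in WT. As library shares this gave a lean of 0.75 (0.16 to 1.34), with 1.34 in replicate 1 and 0.16 in replicate 2. Each 5 Mb bin of this part was KO above WT in H3K36me3 covered length, with leans of 0.50 to 0.88. The KO lean of H3K36me3 thus did not begin at 25 Mb. KO-higher regions were 89 of 291 in replicate 1 and 4 of 291 in replicate 2. In the first bin alone, 246.0 and 128.7 kb were covered in KO, against 92.5 and 194.7 kb in WT, and 49 of its 109 regions were KO-higher in replicate 1. H3K4me3 leaned by 0.14 over these 25 Mb, and H3K27me3 was nearly absent, with 0 and 12 peaks in KO, against 0 and 15 in WT. KO replicate 1 thus carries most of this lean.

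From 45 Mb on, the marks of active genes were near balance on chromosome 12. H3K4me3 leaned by 0.064 (-0.019 to 0.15) and H3K36me3 by 0.082 (-0.046 to 0.21), both with pairs on either side of 0. H3K27me3 leaned by -2.88 (-4.09 to -1.67). Local exceptions stood out in both directions. The highest H3K4me3 bin of the chromosome was 95 to 100 Mb, with 21.2 and 34.2 kb in KO, against 11.2 and 13.5 kb in WT. The lowest was 50 to 55 Mb, with 36.7 and 56.0 kb in KO, against 34.0 and 51.4 kb in WT, a lean of -0.17.

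One locus between 55 and 60 Mb carried all 3 marks, with H3K27me3 in the opposite order to the others. H3K27me3 at chr12:58633922-58654836 covered 0 and 0 bp in KO, against 4145 and 20915 bp in WT. H3K4me3 within it covered 7314 and 8201 bp in KO, against 0 and 4464 bp in WT. The H3K36me3 peaks there spanned 2591 and 2008 bp in KO, with none in WT. It held the strongest KO-higher H3K4me3 call of the chromosome, chr12:58644215-58648347, and the strongest H3K36me3 call, chr12:58641397-58644561. Here the Polycomb mark was listed in WT alone and H3K36me3 in KO alone, while H3K4me3 was listed in both KO libraries and in WT replicate 2. In the stretch, unlike here, all 3 marks leaned the same way.

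Between 85 and 90 Mb, H3K4me3 lay at different sites in the genotypes. It covered 1819 and 2249 bp of chr12:86229781-86232029 in KO and none in WT. It covered 2750 and 3649 bp of chr12:86214647-86218295 in WT and none in KO. The gap between these regions was 11.5 kb. Other strongly WT-higher regions of chromosome 12 were chr12:105930905-105933171 and chr12:51748958-51750955 for H3K4me3 and chr12:112720688-112727140 and chr12:54345439-54353141 for H3K27me3. WT-higher H3K36me3 regions were chr12:70971324-70975431 and chr12:71973166-71976695, both without H3K36me3 peaks in KO.

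On chromosome 17 no stretch carried all marks. H3K4me3 bins with KO above WT lay at 5 to 15 Mb and at 60 to 80 Mb, with leans of 0.15 to 0.32. The highest was 75 to 80 Mb, with 58.7 and 87.4 kb in KO, against 33.8 and 60.7 kb in WT. H3K36me3 went the other way in a bin of this second group. At 60 to 65 Mb, H3K36me3 covered 35.8 and 69.2 kb in KO, against 68.1 and 227.7 kb in WT, the lowest lean of the chromosome at -0.78, while the H3K4me3 lean was 0.25.

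The first 5 Mb of chromosome 17 split the marks as well. H3K27me3 covered 4.31 and 202.2 kb there in KO, against 0 and 65.9 kb in WT, its highest lean on the chromosome at 2.44. H3K36me3 covered 100.7 and 142.3 kb in KO, against 167.1 and 238.5 kb in WT, a lean of -0.23. At 25 to 30 Mb the order of H3K27me3 was turned, with 0.830 and 155.0 kb in KO, against 40.4 and 267.4 kb in WT and a lean of -1.49, while H3K36me3 overlapped between genotypes.

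Across bins of chromosome 17 the leans of H3K4me3 and H3K36me3 had a Pearson correlation of -0.46 (19 bins). On chromosome 12 it was 0.50 (23 bins), and 0.14 without the stretch (19 bins). Between H3K36me3 and H3K27me3 it was -0.25 on chromosome 17 (17 bins), 0.87 on chromosome 12 (14 bins) and 0.40 without the stretch (10 bins). On the other 18 chromosomes these correlations were 0.43 (455 bins) and 0.36 (371 bins). Bins of a chromosome share libraries and are not independent, so the values describe these lists only.

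KO-higher H3K36me3 calls clustered on chromosome 17. The 3 bins richest in them, at 45, 70 and 5 Mb, held 22 of the 31 regions called in both replicates (71.0%) but 16.3% of all H3K36me3 regions of the chromosome. Without these bins the lean in covered length was 0.19, beside 0.23 with them, so the lean in length was spread over more bins than the calls. H3K4me3 calls were not clustered in this way, since the 3 richest bins held 29.7% of calls and 31.7% of regions. Of the 1153 H3K4me3 regions, both replicates called 148 (12.8%) KO-higher and 7 (0.607%) WT-higher, beside 10.8% and 1.12% of all. On chromosome 12 the 3 richest H3K36me3 bins held 69.2% of calls and 17.1% of regions.

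The strongest H3K36me3 calls of chromosome 17 formed a single block. Its 3 highest regions, chr17:49596191-49605983, chr17:49617452-49628523 and chr17:49628763-49636076, lay within 39.9 kb. H3K36me3 covered 26.3 and 30.7 kb of that span in KO, against 0 and 0 kb in WT. The strongest KO-higher H3K4me3 region of the chromosome, chr17:49700944-49704393, began 64.9 kb further on and was covered over 2599 and 3450 bp in KO, against 0 and 1284 bp in WT. H3K27me3 covered 2528 bp of it in WT replicate 2 and none in the other 3 libraries.

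The H3K4me3 regions with the next strongest calls, chr17:13818695-13821748 and chr17:64970800-64972451, were listed in both KO libraries and in neither WT library. The first covered 2684 and 3054 bp and the second 1652 and 1590 bp in KO. WT-higher regions were few for the marks of active genes. They included H3K4me3 at chr17:26799522-26801130, with 0 and 0 bp in KO, against 878 and 1609 bp in WT. They also included H3K36me3 at chr17:74175638-74183335, with 0 and 0 bp in KO, against 1186 and 7698 bp in WT.

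H3K27me3 calls on chromosome 17 were WT-higher in both replicates in 31 of 1017 regions, and no region was KO-higher in both. The WT-higher share of 3.05% was near the 3.76% of all H3K27me3 regions, and 0.171% of all were KO-higher. The strongest was chr17:85881865-85893215, with 0 and 8259 bp in KO, against 7237 and 11351 bp in WT. At chr17:47273633-47281465 the mark covered 0 and 0 bp in KO, against 3979 and 7833 bp in WT, while H3K4me3 there covered 2133 and 3995 bp in KO, against 574 and 2513 bp in WT. At chr17:36291193-36305769 H3K27me3 covered 0 and 11853 bp in KO, against 8747 and 14577 bp in WT.

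Along chromosome 12, then, the bins between 25 and 45 Mb were KO above WT in the covered length of all 3 marks, and the H3K36me3 lean of the chromosome was 0.38 with the stretch and 0.24 without it. Along chromosome 17 the KO lean was in H3K36me3 covered length over 12 of 19 bins (63.2%), beside 30.3% of all bins. In H3K36me3 peak number it was over 3 bins (15.8%), beside 17.7% of all. H3K4me3 covered length was KO above WT in 6 of 19 bins (31.6%), beside 25.2% of all, and its share of the whole chromosome overlapped between genotypes. Of these 6 bins, 3, at 5 to 15 Mb and at 70 to 75 Mb, were among the 12 H3K36me3 bins. The authors called one list per library against whole-cell extract, but the extract signal itself was not at hand here. A change of DNA copies and a change of marking on unchanged DNA cannot be told apart from these lists, and neither was tested.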

How the data were processed

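Per the submitters' processing notes, reads were handled with Bowtie 0.12.7, mm9 and MACS (no version stated). The authors deposited a list called against extract and a difference list for each of 12 ChIP libraries, not pooled. Column 5 is the authors' score, at least 80 in every list, with no formula given in the sources used here. The 4 extract samples had no file here. Libraries were grouped and numbered by their titles.

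Peaks on chromosomes 1 to 19 and X were used, and 0 to 46 peaks per list on other contigs were left out. Regions are peaks of a mark's 4 extract lists merged where they overlap or touch. KO-higher and WT-higher regions are those that overlapped, by at least 1 bp, a difference peak of the KO or the WT library. Each bin of 5 Mb takes peaks clipped to it, and 5 kb (or 1 peak) was added before the log2. Bins under 20 kb (or 10 peaks) summed over the 4 libraries were left out. Up to 3 regions per mark, chromosome and direction were named, taken among the calls made in both replicates by the mean percentile of the score of their strongest difference peak, highest first. The named bins were the 3 highest and the 2 lowest in lean. Scores were used within a list only. Intervals are 95% Wilson intervals, and 3 counts were taken as the limit that a count of 0 allows. Python 3.11.15, numpy 2.4.6, scipy 1.17.1 and matplotlib 3.10.9 were used, and the code was tested on simulated peaks.

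The chromosomes and all lists were chosen with earlier results of these data known, and the stretch of 25 to 45 Mb after its bins were seen. No test was made. The gene tables at hand are of GRCm38.p6, so they gave the chromosome of a gene and no position, and no sequence is printed.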

Additional observations from a re-analysis of the deposited data

How the results depend on the processing

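A score of at least 160 turned the lean in covered length of H3K27me3 to -0.31 on chromosome 12 and -0.072 on chromosome 17. It turned the lean in number of H3K4me3 on chromosome 17 to 0.011 and moved those of H3K27me3 to -0.73 (chromosome 12) and -0.22 (chromosome 17). The share of bins KO above WT became 8.33% in length and 9.09% in number for H3K27me3 on chromosome 12, 0% and 6.25% on chromosome 17, and 26.3% in number for H3K36me3 on chromosome 17. Regions called in both replicates became 65 KO-higher and 9 WT-higher for H3K4me3 on chromosome 12, and 63 and 4 on chromosome 17. For H3K36me3 they became 12 and 0 on chromosome 12 and 15 and 1 on chromosome 17, and WT-higher H3K27me3 regions became 8 and 12. The shared H3K27me3 regions of chromosome 17 gave 0.48. In the stretch, H3K27me3 had no value at this score, since WT replicate 1 had 0 peaks left, and outside it KO replicate 1 had 0.

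Scaling by the median of the other 18 chromosomes turned H3K27me3 to -0.056 on chromosome 12 and -0.0096 on chromosome 17, and gave 73.9% of H3K36me3 bins on chromosome 12 KO above WT. Without 25 to 45 Mb, H3K27me3 on chromosome 12 was -2.81. The stretch cut to 25 to 40 Mb gave 0.43 for H3K4me3. For H3K27me3 on chromosome 12, bins of 2 Mb gave 16.7% of bins in length, and no filter on low bins gave 16.7% in length and in number. On chromosome 17, bins of 10 Mb gave 22.2% in length and in number. Merging peaks within 1 kb gave 4 WT-higher H3K36me3 regions on chromosome 12 and 2 KO-higher H3K27me3 regions on chromosome 17. Summed length over shared H3K4me3 regions of chromosome 12 gave 0.068. Adding 1 kb or 0.5 peaks, counting a peak in every bin it overlaps and asking for a larger overlap with the difference peak left the shares of bins as they were and altered the counts of regions by at most 1.

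With the replicate number as a block, a bin counted where both same-numbered pairs leaned one way. This gave 23.5% of H3K27me3 bins in length and, in number, 52.6% for H3K4me3, 31.6% for H3K36me3 and 16.7% for H3K27me3, all on chromosome 17, and moved no other share by over 1.5 times, though 5 of them were higher, such as 56% for H3K4me3 on chromosome 12 in length. Same-numbered libraries deviated together over bins with correlations of 0.47, 0.023 and 0.23 for H3K4me3, H3K36me3 and H3K27me3, and there are only 2 pairs. The labels do not say that a number marks a shared culture or day, so the libraries were taken to share only a number, and values given by replicate set libraries of the same number side by side without a claim that they are paired.

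Leaving out each library in turn, the lean in length ran between -0.029 and 0.088 for H3K4me3 on chromosome 17, between -0.26 and 0.44 for H3K27me3 on chromosome 12 and between -0.047 and 0.33 on chromosome 17. The lean in number ran between -0.039 and 0.026 for H3K4me3 on chromosome 17, between -0.020 and 0.084 for H3K36me3 on chromosome 17, and -0.37 and 0.074 (chromosome 12) and -0.16 and 0.024 (chromosome 17) for H3K27me3. Bins KO above WT in length ran between 44% and 64% for H3K4me3 and 52.2% and 78.3% for H3K36me3 on chromosome 12, and between 36.8% and 57.9% for H3K4me3 and 17.6% and 58.8% for H3K27me3 on chromosome 17. In number they ran between 32% and 52% for H3K4me3 on chromosome 12, and on chromosome 17 between 36.8% and 52.6% (H3K4me3), 26.3% and 42.1% (H3K36me3), and 11.1% and 44.4% (H3K27me3). Fewer libraries make such bins easier to reach. A call in the 1 library left gave up to 241 and 251 KO-higher regions for H3K4me3 on chromosomes 12 and 17 (at least 127 and 148), up to 228 and 155 for H3K36me3 (at least 39 and 31) and up to 148 and 111 for H3K27me3 (at least 1 and 0). WT-higher regions ran up to 47 and 47 for H3K4me3 (at least 15 and 7), up to 22 and 104 for H3K36me3 (at least 2 and 2) and up to 121 and 153 for H3K27me3 (at least 21 and 31). Shared regions of chromosome 17 ran between -0.0050 and 0.037 for H3K4me3 and between -0.0098 and 0.27 for H3K27me3. The shared H3K27me3 regions of chromosome 12 gave no value, since none was listed in all 4 libraries. The KO lean of the stretch as a whole kept its direction in each mark wherever it could be computed. For H3K27me3 at a score of at least 160 it could not, with 1 and 102 peaks left in KO, against 0 and 17 in WT. The share of H3K27me3 bins of chromosome 12 KO above WT in length then fell from 28.6% to 8.33%. Not all bins of the stretch thus kept all 3 marks at this score. The cause of these shifts was not tested beyond what the alternatives themselves set, and the thin replicate 1 lists of H3K27me3 limit all its values.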

Other observations

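The other 14 bins in which all 3 marks were KO above WT lay on chromosomes 1, 3, 5, 6, 8, 16 and 18. Chromosome 6 held single bins at 45 to 50, 70 to 75 and 105 to 110 Mb and a run of 2 at 125 to 135 Mb. Chromosome 8 held a single bin at 25 to 30 Mb and a run of 2 at 35 to 45 Mb. Bins in which all 3 marks were WT above KO numbered 27 of 402, with none on chromosomes 12 and 17.

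Scores of difference peaks in the stretch on chromosome 12 were set beside those elsewhere on the chromosome, as percentiles within their own lists. The median percentile of KO-higher H3K4me3 difference peaks was 61.6 and 67.0 in replicates 1 and 2 in the stretch, against 45.1 and 51.4 elsewhere on the chromosome. For H3K36me3 it was 71.2 and 50.9 in the stretch, against 46.9 and 39.6 elsewhere. For H3K27me3 of replicate 2 it was 57.8 in the stretch, against 35.1 for the 6 peaks elsewhere. For H3K27me3 of replicate 1 the 5 peaks of the stretch had a median percentile of 39.4, with no peak elsewhere on the chromosome.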
